A study of Mus musculus with 6 samples.

Results

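Glioma-initiating cells (GICs) are tumor cells able to form a glioma again when transplanted. RNA was compared between GIC cultures of the mouse line labelled 7080X1, set up from tumors that had grown in C57BL/6 brains. The groups compared were NMN-before-Tumor and Old, both with old hosts. NMN is not spelled out in the labels; its usual expansion is nicotinamide mononucleotide. The 2 libraries, NMN-before GICs and old GICs, are 2 of the 6 libraries of the series, and each is the single library of its group, so every difference below compares 2 libraries, has no replicate check and carries no p-value. GICs of the young host group, also 1 library, are set beside them, and the matching tumors are used in the closing comparison. Per the series' design text, mouse GICs had been injected into the brain, tumors were taken once symptoms appeared, and the cultures were derived from those tumors. The labels and design text used here do not state how, how much or how long NMN was given, the host ages, or how many mice stand behind a culture. Expression was deposited as FPKM, fragments scaled by transcript length and library size, in a table of 46952 rows, of which 12809 had a highest value of at least 1 FPKM among the 3 GIC libraries and entered the comparison.

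The 3 libraries listed known GIC genes at high levels. Sox2, a stem cell transcription factor, was at 65.6 FPKM in NMN-before GICs, 65.1 in old and 52.1 in young GICs, and Nes, which encodes the intermediate filament nestin, was at 138, 154 and 123 FPKM in the same order. Rows that recover whole fragments gave depths of 9.72 M fragments for NMN-before, 9.69 M for old and 12.7 M for young GICs. At those depths a value of 5 FPKM for a transcript of 1 kb had a 95% Poisson interval of 3.69 to 6.62 FPKM in NMN-before and in old GICs, which covers counting error only. At 1 FPKM the interval ran from 0.473 to 1.85 FPKM in NMN-before GICs. Defining genes of immune cells were at or near 0 in all 3 cultures. The leukocyte gene Ptprc was at 0.175 FPKM in NMN-before, 0.0462 in old and 0.0529 in young GICs. The T cell gene Cd3e was listed at 0 in each, and the microglial receptor gene Csf1r did not exceed 0.1099 FPKM. Whether a lower value in a culture reflects fewer cells that express a gene or less RNA per cell cannot be told apart in bulk RNA.

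MHC class I molecules display peptides from inside the cell to CD8 T cells. The peptides are cut by the proteasome, whose catalytic subunits are replaced by immunoproteasome subunits under interferon gamma, carried into the endoplasmic reticulum by the TAP transporter and loaded on a heavy chain that pairs with beta-2 microglobulin. NLRC5 is a transactivator of this gene set, and interferons signal to it and to other interferon-stimulated genes through JAK kinases and STAT factors. Oligodendrocyte precursor genes such as Olig1, Olig2 and Cspg4 are widely expressed in proneural glioma. NMN is a precursor of NAD+, which sirtuins and PARP enzymes consume.

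Across all rows the difference between NMN-before and old GICs was centred on 0: the median log2 difference of FPKM plus 1 was -0.00 and the middle 50% lay between -0.27 and 0.29. A difference of 1 or more in size on this scale is called 2-fold below; it is a rule of size, and adding 1 understates the differences of low genes. By that rule 418 rows were higher in NMN-before GICs (3.26% of rows tested) and 295 were lower (2.30%). Of the 10527 rows that name a single protein-coding gene, 283 were 2-fold higher (2.69%) and 166 were 2-fold lower (1.58%), while 49.6% and 50.4% were higher and lower at any size; over all rows these were 49.4% and 50.2%. Against young GICs 3.58% of all rows were 2-fold higher and 3.04% were 2-fold lower in NMN-before GICs, and 50.1% and 49.5% were higher and lower at any size. These shares are the background against which each gene list is read. Of the 713 rows past 2-fold, 163 were listed at 0 in NMN-before or in old GICs. The plot of both libraries shows the antigen presentation and interferon genes below the diagonal and most glial genes above it.

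**Figure D1:**
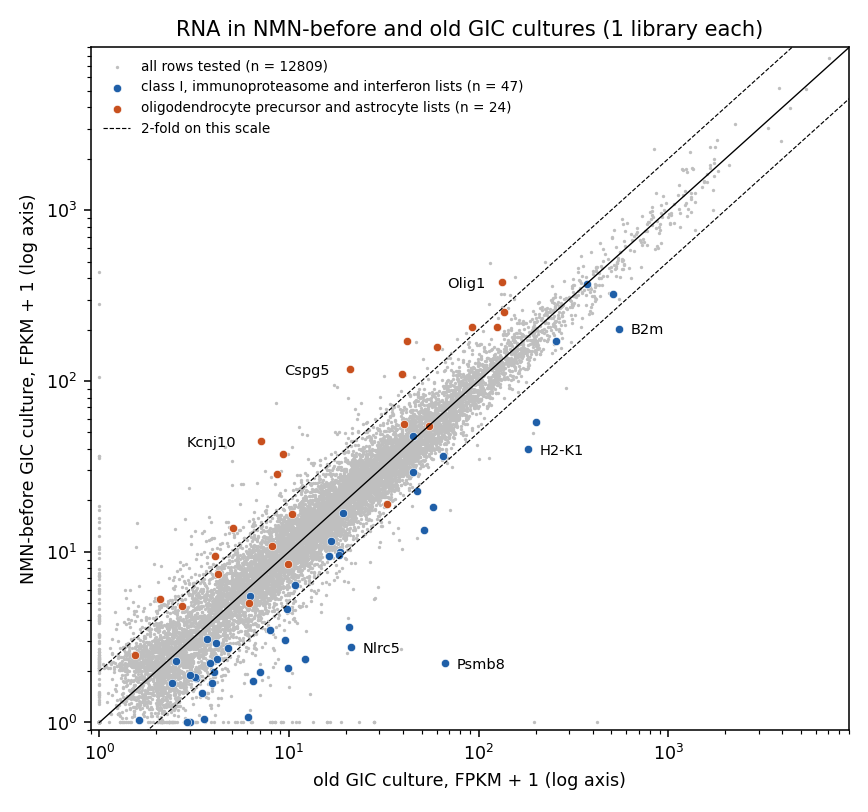
Each point is a row, with FPKM plus 1 in old GICs on the horizontal log axis and in NMN-before GICs on the vertical log axis (1 library each); dashed lines mark 2-fold. Blue points, measured genes of the class I, immunoproteasome and interferon lists, lie mostly below the solid line of equal values, Psmb8 farthest with a log2 difference of -4.90; most orange points, oligodendrocyte precursor and astrocyte genes, lie above it.

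MHC class I chains were lower in NMN-before GICs without exception among those measured. The list held 12 genes, each with a row of its own, of which 10 reached 1 FPKM in some GIC library; H2-Q10 and H2-T24 did not. All 10 were lower than in old GICs, with 4 past 2-fold, and their median log2 difference was -0.92. Against young GICs, which are compared through the same NMN-before library, the median was -1.12. H2-K1, a classical heavy chain encoded on the minus strand of chromosome 17 from 33996017 to 34000347, was at 38.7 FPKM in NMN-before GICs, 182 in old and 258 in young GICs (log2 difference -2.20 from old). H2-D1, the other classical chain, was at 56.2, 199.9 and 265 FPKM in that order of cultures. B2m, the light chain, lies outside the MHC on chromosome 2 and was at 202 FPKM in NMN-before GICs, against 547 in old and 689 in young GICs. For these abundant chains the NMN-before library alone was low, and the old and young libraries were closer to each other than to it. The other measured members, H2-Q4, H2-Q6, H2-Q7, H2-M3, H2-T10, H2-T22 and H2-T23, had log2 differences between -1.23 and -0.78. Many of these are close copies in sequence, so the split of fragments among them is uncertain. H2-Q7 was the member that was higher than in young GICs, at 0.813 FPKM in NMN-before, 2.24 in old and 0.504 in young GICs.

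The upstream sequences of 4 genes that were lower in NMN-before GICs are shown because their promoters carry the letters of known interferon or NF-kB response elements. H2-K1 and B2m represent the class I chains, Gbp3 the interferon-inducible GTPases and Cxcl10 the chemokines described below. Each is the 250 bases before the transcription start that RefSeq gives, on build GRCm38.p6, read toward the gene, with matches in capitals. The windows are chr17:34000348-34000597 on the minus strand for H2-K1, chr2:122147437-122147686 on the plus strand for B2m, chr3:142559794-142560043 on the plus strand for Gbp3 and chr5:92348890-92349139 on the minus strand for Cxcl10.
H2-K1: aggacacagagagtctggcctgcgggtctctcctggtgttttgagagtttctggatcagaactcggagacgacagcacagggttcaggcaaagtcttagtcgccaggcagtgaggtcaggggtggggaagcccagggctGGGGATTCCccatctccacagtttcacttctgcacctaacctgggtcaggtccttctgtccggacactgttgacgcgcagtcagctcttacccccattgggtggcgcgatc
B2m: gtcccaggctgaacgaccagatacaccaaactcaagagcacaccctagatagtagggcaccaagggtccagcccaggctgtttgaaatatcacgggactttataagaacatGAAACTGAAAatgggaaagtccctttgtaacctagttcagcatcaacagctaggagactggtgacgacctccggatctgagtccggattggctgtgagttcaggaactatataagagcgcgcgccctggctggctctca
Gbp3: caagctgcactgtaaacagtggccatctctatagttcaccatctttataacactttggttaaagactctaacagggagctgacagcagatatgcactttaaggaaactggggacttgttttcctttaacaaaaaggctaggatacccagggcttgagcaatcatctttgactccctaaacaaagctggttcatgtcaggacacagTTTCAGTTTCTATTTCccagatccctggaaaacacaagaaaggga
Cxcl10: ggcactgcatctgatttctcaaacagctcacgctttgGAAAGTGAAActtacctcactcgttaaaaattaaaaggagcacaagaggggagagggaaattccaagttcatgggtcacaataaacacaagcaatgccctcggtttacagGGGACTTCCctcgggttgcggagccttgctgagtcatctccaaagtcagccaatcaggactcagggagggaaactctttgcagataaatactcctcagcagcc
The capitals mark GGGNNTTCC, the core of an NF-kB element, in H2-K1 and in the match of Cxcl10 nearer the gene. In the others they mark the core of an interferon-stimulated response element (ISRE), which is GAAA, any 2 bases and GAAA again, read on either strand. In Gbp3 there are 2 such matches that overlap. Promoters of 8370 of the protein-coding rows tested were searched on both strands over 250 bases before to 50 after the start. The ISRE core was in 2.70% of them, GGGNNTTCC in 7.28% and TTCNNNGAA, the core of a STAT site, in 6.69%; matches of different motifs may overlap. Of 9 class I promoters given by RefSeq, 3 held the ISRE core and 5 held GGGNNTTCC (H2-K1, H2-D1, H2-Q4, H2-Q6 and H2-Q7). All 5 measured GTPase promoters and 9 of 16 promoters of measured interferon-stimulated genes held the ISRE core. The class I assembly list and the immunoproteasome list had it in 1 of 5 promoters each. It was also in 2 of 10 promoters of interferon receptor and JAK-STAT genes, a list that was mostly not lower. Oligodendrocyte precursor genes had it in 0 of 9. With 9 promoters, 0 cannot be told apart from the 2.70% of all promoters. Among all protein-coding rows 2-fold lower in NMN-before GICs the ISRE core was in 14 of 119 promoters. Among those 2-fold higher it was in 6 of 212. The 14 include the 5 GTPases and some of the interferon-stimulated genes, so that count is not separate from those of the lists. In the same 2 sets GGGNNTTCC was in 14 of 119 and 10 of 212 promoters. TTCNNNGAA was in 8 of 119 (6.72%) and 11 of 212 (5.19%), close to its share of all promoters. By list its share varied. It was in 4 of 16 promoters of interferon-stimulated genes, 2 of 5 of GTPases and 1 of 9 of class I chains. Interferon receptor and JAK-STAT genes had it in 2 of 10 and oligodendrocyte precursor genes in 0 of 9. These lists hold few promoters each. A match is a run of letters and was not tested as a binding site.

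Genes that assemble and load class I molecules were also lower, though less evenly. Of 9 genes on this list, 8 had a row of their own, and all 8 were lower than in old GICs, with 3 past 2-fold, and the median was -0.70. Nlrc5, the class I transactivator, spans 94434356 to 94527272 on the plus strand of chromosome 8. It was at 1.77 FPKM in NMN-before GICs, against 20.2 in old and 23.2 in young GICs (log2 difference -2.94). Among protein-coding genes at 5 FPKM or more with a row of their own, its difference was the second lowest. Tap2, a subunit of the peptide transporter, was at 2.06, 8.52 and 6.84 FPKM in NMN-before, old and young GICs. Tap1, its partner, was at 5.41, 9.698 and 13.02 FPKM. Erap1, which trims peptides in the endoplasmic reticulum, was at 2.46, 6.95 and 6.62 FPKM. The general chaperones of the same compartment were less far apart: Calr and Pdia3 had log2 differences of -0.66 and -0.59, and Canx, calnexin, was at 368 FPKM in NMN-before and 373 in old GICs, a difference whose sign turned when the trend with GC content was removed. Tapbp, tapasin, shares a row with Zbtb22, which was at 16.5 FPKM in NMN-before and 17.7 in old GICs.

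Among proteasome genes the gap was concentrated in the pair of immunoproteasome subunits encoded inside the MHC. Psmb8, on the plus strand of chromosome 17 from 34197721 to 34201454, was at 1.23 FPKM in NMN-before GICs, 65.3 in old and 54.03 in young GICs. Its log2 difference of -4.90 was the lowest of all protein-coding genes at 5 FPKM or more with a row of their own. Psmb9, on the minus strand of the same cluster, was at 1.36, 11.1 and 9.71 FPKM in that order. The third immunoproteasome catalytic subunit, Psmb10, is encoded on chromosome 8 and was at 46.7 FPKM in NMN-before, 43.9 in old and 43.7 in young GICs, so that the 3 libraries lay close together; removal of the GC trend turned the sign of this small difference. The activator genes Psme1 and Psme2 had log2 differences of -0.63 and -0.84. All 5 genes of the list were measured, 4 were lower and 2 of them by 2-fold. Of the constitutive catalytic subunits, Psmb6 was at 223 FPKM in NMN-before and 203 in old GICs and Psmb7 at 171 and 202, while Psmb5 shares a row with a microRNA gene (109 and 119 FPKM). In the deposited table Psmb8 has a row of its own but the same listed locus as Tap2, and Psmb9 the same as Tap1, with which it overlaps on the other strand.

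Receptors and kinases that carry the interferon signal were mostly not lower. Of 13 such genes, 10 had their own row. None was past 2-fold, 7 were higher and 3 lower in NMN-before GICs, and the median was 0.21. The receptor chains Ifngr1 and Ifnar1 were at 13.1 and 17.01 FPKM in NMN-before GICs, against 11.7 and 13.95 in old GICs, and the kinase gene Jak1 was at 15.6 against 15.3. Stat2 was at 5.59 FPKM in NMN-before and 5.61 in old GICs. The lower ones included Socs1, a feedback inhibitor of JAK kinases, which was at 0.4703 FPKM in NMN-before, 1.63 in old and 1.61 in young GICs. Among the interferon regulatory factors with a row of their own, Irf1, itself induced by interferon gamma, was at 13.2 FPKM in NMN-before GICs, against 29.9 in old and 25.4 in young GICs. Irf3, which is activated after synthesis of the protein, was at 46.2 FPKM in NMN-before and 45.2 in old GICs, and Irf2 at 9.15 and 7.89.

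Interferon-stimulated genes were lower throughout. The list held 31 genes, of which 30 had a row of their own and 19 reached 1 FPKM. All 19 were lower than in old GICs, 9 by 2-fold, with a median of -0.83 (against young GICs -0.95). Of the 11 genes below 1 FPKM, 10 were lower and 1 was higher. Cxcl10, a chemokine that attracts T cells, was at 12.4 FPKM in NMN-before GICs, 50.4 in old and 48.3 in young GICs. Bst2, the membrane protein tetherin, was at 17.3, 56.2 and 61.4 FPKM. Ifih1 and Ddx58, which encode the RNA sensors MDA5 and RIG-I, were at 0.969 and 3.65 FPKM in NMN-before GICs, against 6.06 and 8.74 in old GICs. In each of these genes the NMN-before library was the lowest of the 3. Usp18, a protease that removes ISG15 from proteins, was at 0.751 FPKM in NMN-before, 5.44 in old and 3.78 in young GICs. Zbp1, a sensor of Z-form nucleic acids, was listed at 0 in NMN-before GICs, at 1.99 FPKM in old and 1.03 in young GICs, and Oasl2 was listed at 0, 1.9004 and 2.19 FPKM. Some members differed little: Adar was at 15.8 FPKM in NMN-before and 18.3 in old GICs, and Ifit2 at 4.49 and 5.23. The adaptors and sensors that are not named for induction lay on both sides, with 4 of 7 lower and a median of -0.12; Tmem173, which encodes STING, was at 37.8 FPKM in NMN-before and 31.6 in old GICs.

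The interferon-inducible GTPases, which act against intracellular pathogens, had the lowest median of all lists, -2.26, against -1.34 relative to young GICs. Of 16 genes, 7 had their own row, 5 of these reached 1 FPKM, and all 5 were 2-fold lower than in old GICs; the 9 others share rows. Gbp3 was at 2.61 FPKM in NMN-before, 19.8 in old and 12.2 in young GICs. Gbp2 was at 1.08, 8.91 and 4.25 FPKM, and Tgtp2 at 0.0767, 5.04 and 2.598. Irgm1, the most abundant, was at 21.6, 46.6 and 40.3 FPKM. For all 5 genes old GICs were the highest and NMN-before GICs the lowest of the 3 libraries. Of the 5 rows shared by members of this family, 4 had the same order. Igtp with Irgm2 was at 1.56 FPKM in NMN-before, 19.2 in old and 10.03 in young GICs, and Ifi47 with Olfr56 at 0.461, 11.9 and 6.94 FPKM. The exception, the row of Gbp4, Gbp8 and Gbp9, was at 2.36 FPKM in NMN-before, 3.16 in old and 3.21 in young GICs (log2 difference -0.31). Members of this family are close in sequence, so single values are less certain than the shared direction.

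**Figure D2:**
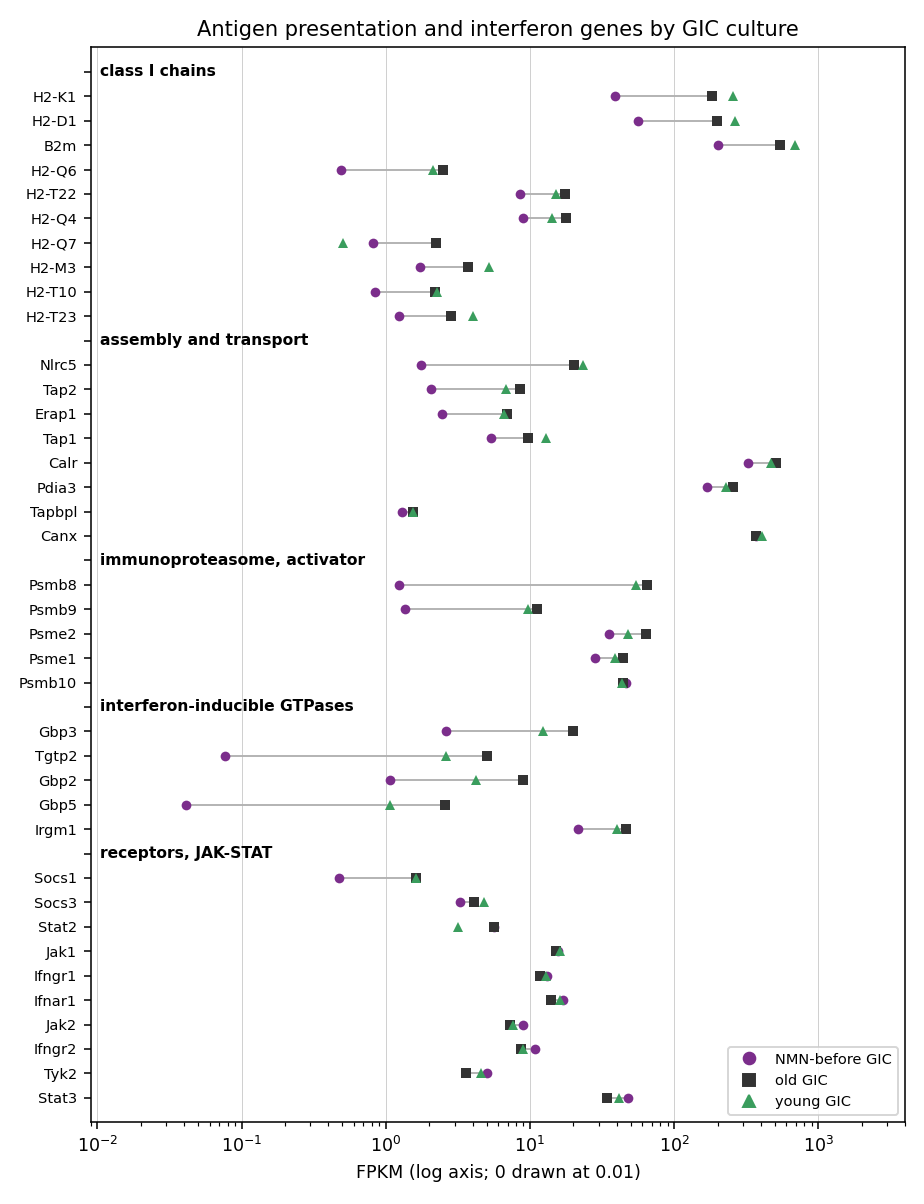
FPKM on a log axis for each measured gene of 5 lists in NMN-before (purple circles), old (black squares) and young GICs (green triangles), 1 library each, joined from NMN-before to old. Class I chains, Nlrc5, Tap2, Psmb8, Psmb9 and the GTPases have the purple circle left of the black square, while Psmb10, Canx and most receptor and JAK-STAT genes have the points together.

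NF-kB subunits differed less than some of their targets. Of 16 genes, 15 were measured, 13 were lower in NMN-before GICs, the 2-fold rule was passed by 2, and the median was -0.29. The subunit genes Rela and Nfkb1 were at 19.6 and 14.6 FPKM in NMN-before GICs, against 15.3 and 14.4 in old GICs, and Rel at 2.66 against 3.802. Icam1 and Vcam1, adhesion ligands for leukocyte integrins, were at 0.852 and 11.1 FPKM in NMN-before GICs, 6.72 and 46.2 in old GICs and 11.2 and 36.7 in young GICs. Of 18 chemokine genes only 7 reached 1 FPKM, 6 of them lower and 3 by 2-fold (Ccl2, Ccl5 and Cxcl10). Ccl5, a chemokine for T cells and monocytes, was at 1.27 FPKM in NMN-before, 11.2 in old and 6.15 in young GICs. Ccl2, the main monocyte chemokine, was at 0.449, 6.02 and 0.236 FPKM, so there it was the old library that stood apart. The cytokine gene Il33 was at 1.11, 7.198 and 4.57 FPKM. Among 13 genes of immune checkpoints and phagocytosis signals, 8 were measured, 5 were lower and none by 2-fold. Cd47, the signal that inhibits phagocytosis, was at 9.96 FPKM in NMN-before, 19.39 in old and 22.05 in young GICs. Cd274, which encodes PD-L1, was at 0.589, 1.008 and 1.63 FPKM in the same order.

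Markers of immune cells were low in all 3 cultures. Of 14 microglia and macrophage markers with a row of their own, 12 stayed below 1 FPKM in all 3 libraries, and the 14 summed to 10.6 FPKM in NMN-before, 9.28 in old and 9.06 in young GICs. Lyz2 was at 4.33 FPKM in NMN-before and 2.21 in old GICs, Cd68 at 4.61 and 5.51, and the microglial receptor gene Cx3cr1 was listed at 0 in NMN-before GICs. The 11 lymphocyte markers summed to 1.13, 1.07 and 1.99 FPKM in the same order, with Cd3e at 0 in all 3. The part of such cells in the differences was not tested. The defining genes of endothelium and fibroblasts were low as well: Pecam1 was at 0.581, 0.921 and 1.71 FPKM and Col1a1 at 1.34, 1.02 and 2.34 FPKM in NMN-before, old and young GICs. The 13 endothelial and mural markers summed to 42.8 FPKM in NMN-before, 17.1 in old and 19.9 in young GICs; Cspg4, which is also on the oligodendrocyte precursor list, made up 36.3, 8.27 and 11.7 of these, and Cldn5 was listed at 0 in NMN-before and in young GICs. The 8 fibroblast markers with a row of their own summed to 3.76, 2.12 and 7.33 FPKM. Neuron markers summed to 143, 125 and 107 FPKM, of which Map2, a microtubule protein, was 135, 110.3 and 94.1, while Rbfox3 did not exceed 0.2799.

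Oligodendrocyte precursor genes were higher in NMN-before GICs. Of 17 genes, 16 had a row of their own and 12 were measured, of which 10 were higher than in old GICs, 8 by 2-fold, with a median of 1.30 and the same median against young GICs. Olig1, a transcription factor of the oligodendrocyte lineage, was at 379.9 FPKM in NMN-before, 132 in old and 114 in young GICs, and Olig2, its neighbor on chromosome 16, at 254, 136 and 108. The 2 largest differences on the list were those of Cspg5 and Cspg4. Cspg5, neuroglycan C, was at 117 FPKM in NMN-before, 20.04 in old and 28.8 in young GICs. Cspg4, which encodes NG2, was at 36.3, 8.27 and 11.7 FPKM. Bcan, brevican, was at 158, 59.01 and 60.6 FPKM, and the receptor phosphatase gene Ptprz1 at 205, 91.2 and 67.3. In all 6 genes the NMN-before library was the highest, and old and young differed less from each other than from it. Vcan was at 53.4 FPKM in NMN-before and 53.6 in old GICs, Tnr at 3.997 and 5.18, and the row of Pdgfra, which it shares with a microRNA gene, at 13.9 and 14.9. Sox10 and Gpr17, which mark more committed precursors, stayed below 1 FPKM in all 3 cultures.

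Astrocyte genes were higher as well, and myelin genes were mixed. Of 17 astrocyte genes, 12 were measured, 10 were higher in NMN-before GICs, 4 by 2-fold, with a median of 0.77 (0.87 against young GICs). Kcnj10, the inward rectifier potassium channel of astrocytes, was at 43.4 FPKM in NMN-before, 6.11 in old and 9.67 in young GICs. Aldoc, an aldolase of astrocytes, was at 170.4, 40.8 and 37.8 FPKM. S100b, a calcium-binding protein of astrocytes, was at 4.32, 1.08 and 1.41 FPKM. In these 3 genes the NMN-before library was the highest. Gfap, the astrocyte filament, was low in culture, at 6.41, 3.21 and 11.4 FPKM, with the young library highest. Aqp4, an end-foot water channel, did not exceed 0.0319 FPKM. Clu, clusterin, was an exception at 17.98 FPKM in NMN-before and 31.8 in old GICs. Of 14 myelin genes, 7 reached 1 FPKM, 5 were lower and 2 higher, with a median of -0.62 that became 0.39 at a minimum of 5 FPKM; the abundant ones, Cnp and Bcas1, were the higher ones at 37.4 and 67.4 FPKM in NMN-before GICs, against 26.1 and 51.3 in old GICs, and Mbp was at 0.401 and 1.24.

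Stem cell and subtype genes were mixed. Of 12 neural stem cell genes, 10 were measured, with 6 higher, 4 lower and a median of 0.11. Fabp7, a fatty acid binding protein of radial glia, was at 320.2 FPKM in NMN-before, 135 in old and 88.2 in young GICs, and Lfng, a glycosyltransferase that modifies Notch, at 22.04, 9.48 and 5.004. Mfng, another enzyme of that family, ran the other way at 3.08, 19.45 and 15.1 FPKM. Of 11 measured proneural genes 7 were higher (median 0.28), among them Sox8 at 134 FPKM in NMN-before, 50.1 in old and 49.96 in young GICs. Of 20 mesenchymal genes, 15 were measured, 10 were lower and the median was -0.24. S100a6, a calcium-binding protein, was at 33.7 FPKM in NMN-before, 99.9 in old and 244 in young GICs, and Cd44, the hyaluronan receptor, at 38.1, 60.7 and 63.8. Tnc, tenascin C, was the member far on the other side, at 23.9, 4.58 and 28.8 FPKM.

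**Figure D3:**
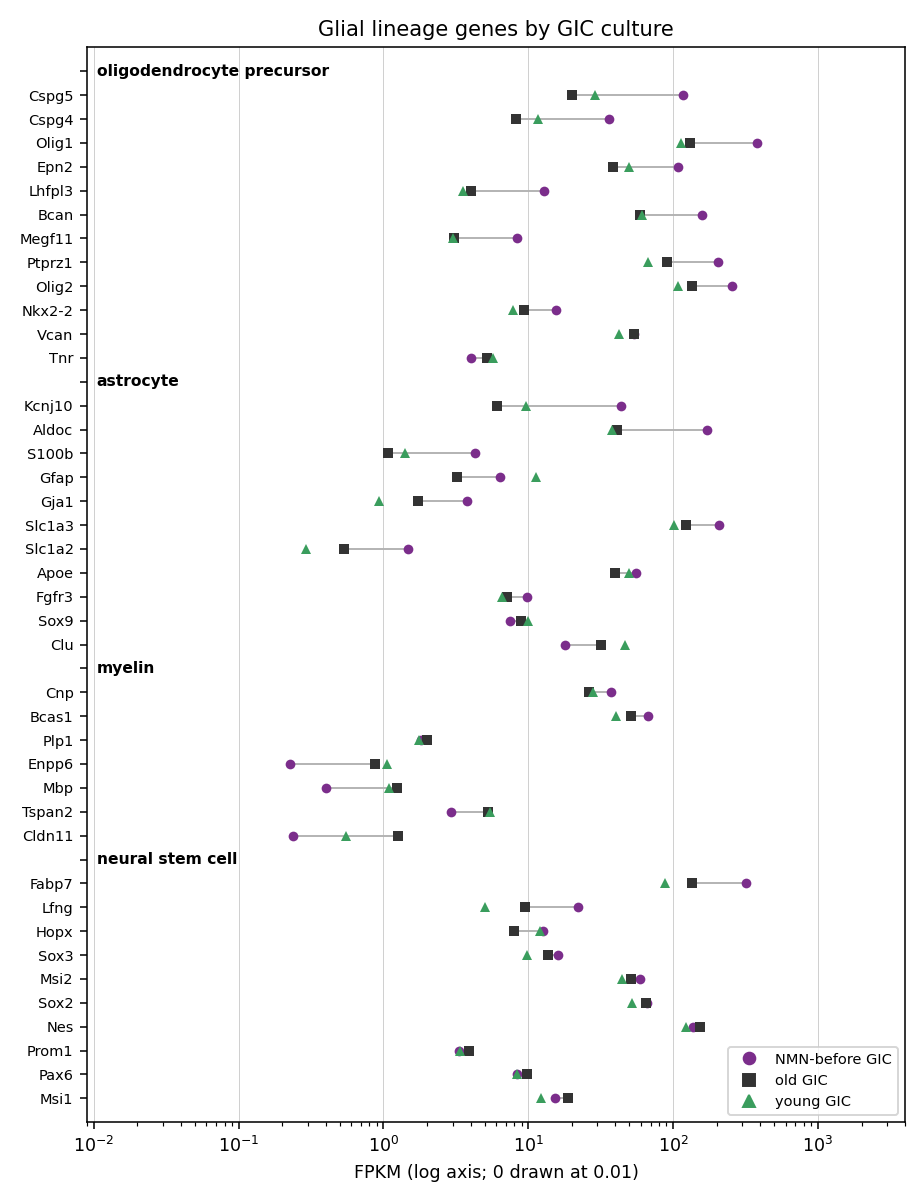
FPKM on a log axis for oligodendrocyte precursor, astrocyte, myelin and neural stem cell genes in NMN-before (purple circles), old (black squares) and young GICs (green triangles), 1 library each, joined from NMN-before to old. The purple circle is right of both other marks for 10 of 12 oligodendrocyte precursor genes and for most astrocyte genes shown, and left of the black square for Mbp, Cldn11, Enpp6 and Tspan2.

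Matrix and adhesion genes contained large differences in both directions. Fn1, fibronectin, was at 93.5 FPKM in NMN-before, 16.4 in old and 45.8 in young GICs, and Gpnmb, a transmembrane glycoprotein of lysosomes and melanosomes, at 73.1, 7.51 and 83.05. For Gpnmb, Tnc and, less closely, Fn1 the old library was the one that stood apart, with young and NMN-before values both above it. Agrn, agrin, was at 49.8 FPKM in NMN-before, 22.1 in old and 20.7 in young GICs, whereas Acan, aggrecan, was at 0.917, 4.89 and 2.09. As a list, 16 of 26 matrix genes were measured, 9 were higher and 7 lower (median 0.12). Of 15 measured integrin and laminin genes, 13 were higher with a median of 0.24, and of 10 measured collagens 8 were higher (0.32), among them Col11a1 at 36.1 FPKM in NMN-before and 15.6 in old GICs. Mmp15, a membrane-bound metalloproteinase, was at 91.7 FPKM in NMN-before, 16.9 in old and 23.7 in young GICs.

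Growth factor lists differed from each other. Of 18 EGFR and MAPK feedback genes, 17 were measured, 14 were higher, none by 2-fold, and the median was 0.48. The ETS factor gene Etv4 was at 115 FPKM in NMN-before and 65.1 in old GICs, Ccnd1, cyclin D1, at 539 and 347, and the phosphatase gene Dusp6 at 74.6 and 49.3. All 8 measured IGF pathway genes of 12 were higher, 3 by 2-fold (median 0.45), but against young GICs their median was -0.20. Igfbp2 and Igfbp5, neighbors on chromosome 1 that encode IGF-binding proteins, were at 487 and 28.9 FPKM in NMN-before, 115 and 6.48 in old and 241 and 50.5 in young GICs. Igf2bp3, an RNA-binding protein of fetal tissue, was at 7.4997, 1.87 and 5.64 FPKM. In the Wnt list 10 of 16 measured genes were higher (0.29), led by the Wnt inhibitor Nkd1 at 24.4 FPKM in NMN-before and 5.76 in old GICs and the receptor Fzd2 at 12.7 and 4.22. Higher members numbered 8 of 13 for Notch (0.28), 10 of 16 for receptor tyrosine kinases (0.27), 5 of 10 for BMP and ID genes (0.01) and 2 of 5 for Hedgehog genes (-0.01).

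Genes of division and replication were slightly lower in NMN-before GICs. Of 17 measured mitosis genes 15 were lower, none by 2-fold, with a median of -0.27, and against young GICs the median was 0.11. Mki67 was at 58.6 FPKM in NMN-before, 65.3 in old and 54.3 in young GICs, and Cdk1, one of the higher members, at 254, 226 and 146. Of 15 measured DNA replication genes 13 were lower (-0.30), with the cyclin E genes Ccne1 and Ccne2 past 2-fold at 13.9 and 9.19 FPKM in NMN-before, against 32.8 and 19.96 in old and 33.7 and 28.7 in young GICs. Myc was at 246 FPKM in NMN-before, 381 in old and 381 in young GICs. Cell cycle inhibitors and Trp53 targets had 10 of 16 lower (-0.22); Cdkn1a was at 17.9 FPKM in NMN-before and 30.1 in old GICs, and Cdkn2a at 359 and 243.

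Enzymes that make NAD+ were lower in NMN-before GICs by small amounts. Of 14 genes, 10 were measured, 9 were lower, none by 2-fold, and the median was -0.35; against young GICs it was -0.14. Nampt, which makes NMN inside cells, was at 27.4 FPKM in NMN-before, 47.4 in old and 33.1 in young GICs. Nmnat1 and Nmnat2, which turn NMN into NAD+, were at 8.45 and 2.44 FPKM in NMN-before GICs, against 11.01 and 4.49 in old GICs. Among 7 measured NAD+ consuming enzymes the 2 past 2-fold were Parp12 and Parp9, PARP enzymes that interferon induces, at 0.265 and 1.05 FPKM in NMN-before, 2.82 and 3.41 in old and 2.88 and 4.34 in young GICs. The rest of that list lay near 0 and its median was -0.02. Of 6 measured sirtuins 4 were higher, with a median of 0.31. Sirt1 and Sirt2, the lower pair, were at 7.08 and 30.8 FPKM in NMN-before GICs, against 11.9 and 44.7 in old GICs.

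Other metabolic and stress lists had small medians. For glycolysis, 13 of 18 measured genes were lower (-0.22), Ldha, a lactate dehydrogenase, at 599 FPKM in NMN-before and 880.2 in old GICs, and hypoxia genes in 7 of 12 (-0.21) with Vegfa on the other side at 62.7 and 34.3. Cholesterol synthesis genes were higher in 14 of 17 (0.21) and fatty acid synthesis genes in 6 of 9 (0.11). Respiratory chain subunits were higher in 9 of 15 (0.17). Of 18 measured genes of the integrated stress and unfolded protein response 14 were lower (-0.33), the chaperone Hspa5 at 249.7 FPKM in NMN-before and 393 in old GICs. Ddit3, which encodes CHOP, was the member past 2-fold and was higher, at 48.4 FPKM in NMN-before, 20.6 in old and 30.5 in young GICs. Of 8 measured heat shock chaperones 7 were lower (-0.38), with Cryab, a small heat shock protein, at 30.3 and 71.6 FPKM. Lysosome genes were higher in 13 of 17 (0.29), Psap, the saposin precursor, at 269 FPKM in NMN-before and 133 in old GICs. Antioxidant genes were higher in 11 of 17 (0.15), and 2 were past 2-fold: Gstm1, a glutathione S-transferase, at 78.2 FPKM in NMN-before, 19.6 in old and 16.3 in young GICs, and Nqo1, a quinone reductase, at 23.9, 7.395 and 8.501.

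Beyond the lists, the 20 lowest and 20 highest protein-coding genes at 5 FPKM or more with a row of their own were examined. Among the lowest were Ly6e, an interferon-inducible surface protein, at 0.6199 FPKM in NMN-before, 8.94 in old and 5.31 in young GICs, and Slc38a4, an amino acid transporter, at 4.33, 27.5 and 20.6. Enpp2, the lipid enzyme autotaxin, was at 0.649, 6.97 and 3.27 FPKM. In these the NMN-before library was lowest and old highest. The highest difference was that of Cox6a2, the muscle form of a cytochrome oxidase subunit, at 13.7 FPKM in NMN-before, 0.578 in old and 1.32 in young GICs, followed by Olfm2, a secreted olfactomedin, at 40.2, 3.57 and 6.14. Prkcb, a protein kinase C, was at 23.5, 4.03 and 1.16 FPKM. Of the glutathione S-transferases, grouped after their values were seen, Gstt1 was at 24.05 FPKM in NMN-before and 4.74 in old GICs and Gstm7 at 12.3 and 2.1996, while Gsta4 was at 9.91 and 19.2. Among 20 potassium channel genes, 9 were measured with 6 higher (median 0.19), and of 26 glutamate and GABA receptor genes 5 were measured with 3 higher (0.31), while 17 stayed below 1 FPKM in all 3 cultures. Among small RNAs, of 58 snoRNA rows, 13 were 2-fold higher (22.4%) and 28 were 2-fold lower (48.3%), against 3.26% and 2.30% of all rows. Of 28 snRNA rows, 10 were 2-fold higher and 9 were 2-fold lower. The fifth of rows with the shortest transcripts held the most 2-fold rows, 151 higher and 126 lower. Values of such short transcripts are less certain, so these counts are not read as a result about snoRNAs.

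Differences also varied by chromosome. Among 8542 protein-coding genes on any chromosome, with a row of their own and at 5 FPKM or more in some GIC library, the median was -0.00. Of these, 49.8% were higher in NMN-before GICs, and 215 were 2-fold higher and 108 were 2-fold lower. The 2-fold counts of single chromosomes are to be read against these. On the X chromosome 36 of 277 genes were higher and 241 lower, with a median of -0.42, and 12 were 2-fold lower against 1 that was 2-fold higher. Chromosome 10 was the opposite: 354 of 450 genes were higher and 96 lower (median 0.25), and 20 were 2-fold higher against none that was 2-fold lower. Chromosome 6 had a median of 0.18 with 26 genes 2-fold higher and 1 lower, and chromosomes 14 and 12 had medians of -0.21 and -0.18. Chromosome 17, which carries H2-K1, H2-D1, Psmb8, Psmb9, Tap1 and Tap2, had a median of 0.18 with 284 of 423 genes higher. On X, all 6 windows of 10 Mb that held 20 genes or more had negative medians, between -0.57 and -0.32. On chromosome 10 the window from 80 to 90 Mb, with 84 of 98 genes higher, had a median of 0.37. In that window lie the co-repressor genes Aes, Tle2 and Tle6, within 81559488 to 81601073, which were at 324, 53.1 and 168 FPKM in NMN-before GICs, against 131, 10.3 and 45.8 in old and 116, 13.4 and 39.04 in young GICs; they were grouped after their values were seen. Set against young GICs, X genes had medians of -0.13 for NMN-before and 0.28 for old, and chromosome 10 genes 0.52 for NMN-before and 0.24 for old. All 5 measured Y-linked genes were higher than in old GICs, none by 2-fold, with a median of 0.20 (grouped after their values were seen), Kdm5d at 15.8 FPKM in NMN-before and 10.7 in old GICs. DNA copy number was not measured, and its part in these medians was not tested.

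**Figure D4:**
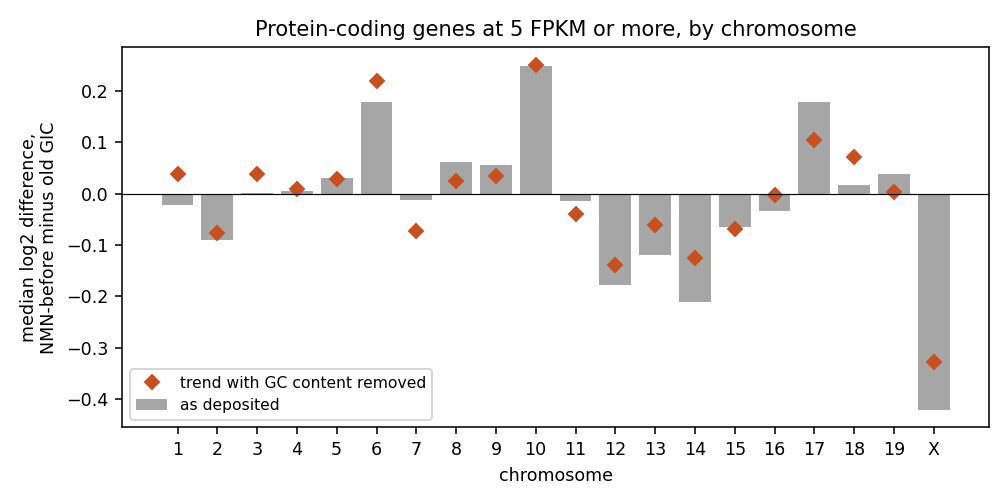
Median log2 difference of FPKM plus 1, NMN-before minus old GICs (1 library each), of protein-coding genes at 5 FPKM or more on each chromosome, as deposited (grey bars) and after removal of the trend with GC content (orange diamonds). X is lowest at -0.42 and -0.33, and chromosome 10 highest at 0.25 and 0.25.

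The difference also followed the base composition of transcripts. With rows cut into 5 equal groups from the lowest GC content to the highest, median log2 differences were -0.15, -0.06, -0.01, 0.05 and 0.18, whereas 5 equal groups by transcript length had medians between -0.02 and 0.01. X-linked genes had a median GC content of 45.3% against 49.4% for all, and with the GC trend removed their median was -0.33. Chromosome 10 genes had a GC content of 49.0%, and their median stayed at 0.25. With the trend removed, 393 rows were 2-fold higher and 310 lower. None of the genes past 2-fold named here changed sign, and the genes that did had differences of 0.23 or less in size, among them Canx, Psmb10, Irf3 and Vcan. This removal was chosen after seeing the data.

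The tumors of the same groups were set beside the cultures, since they share no library with the GICs. Of 14335 rows tested in tumors, 1.86% were 2-fold higher in the NMN-before tumor than in the old tumor and 1.25% were 2-fold lower; 51.5% and 48.2% were higher and lower at any size. Of 12212 rows tested in both tables, 2.93% were 2-fold higher and 1.91% were 2-fold lower in GICs, and 0.983% were 2-fold higher and 0.655% were 2-fold lower in tumors. Of these rows 16 were 2-fold higher in both, which is 4.47% of the 358 higher in GICs and 13.3% of the 120 higher in tumors. Another 8 were lower in both, 3.43% of the 233 lower in GICs and 8 of the 80 lower in tumors. In opposite directions, 21 rows were higher in GICs and lower in tumors, and 25 were lower in GICs and higher in tumors. The genes higher in both included Prkcb and Igf2bp3. Those lower in both included Enpp2 and the row of Igtp and Irgm2. Most rows of both sets, however, carry symbols of predicted, clone-named or snoRNA genes. Across rows the log2 differences had a Pearson r of -0.12 and a Spearman rho of -0.09, where rows are not independent and tumors hold host cells. The class I chains, so far apart in culture, were close in tumors, where 4 of 11 were higher and 7 lower with a median of -0.08. H2-K1 was at 513 FPKM in the NMN-before tumor and 499 in the old tumor, and Psmb8 at 164 and 153. The 7 GTPases with their own row were all lower in the NMN-before tumor (median -0.78), as were the 5 measured in GICs; Gbp2 was at 45.3 FPKM in the NMN-before tumor and 85.8 in the old tumor. Of 30 interferon-stimulated genes, 22 were lower and 8 higher in the NMN-before tumor (median -0.22), none by 2-fold. Oligodendrocyte precursor genes had 7 of 16 higher in the NMN-before tumor and a median of -0.02. Tumor and culture tables were treated as normalized separately, so no level is compared between them.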

How the data were processed

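RNA-seq of 3 mouse GIC cultures and 3 tumors, 1 library per group, was used as deposited. Per the labels' protocols, libraries were stranded, depleted of ribosomal RNA and read from both ends. The submitters' processing notes name Cuffdiff, Cufflinks 2.2.1, STAR 2.5.4b, Trim Galore 0.6.2 and bcl2fastq 1.8.4, and build GRCm38. The authors deposited FPKM values, with no counts, in 1 table per tissue. Annotation, normalization mode and the use of strand in counting: not given in the sources used here. Without strand, overlapping genes on opposite strands would mix.

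Samples were grouped by the labels. Differences are log2(FPKM + 1), NMN-before minus old, over rows with a highest value of at least 1 FPKM; the row just inside that limit, Gm10827, reached 1.0003 FPKM and the one just outside, Gm45094, 0.999945. Of the tested rows 737 name several genes and were left out of lists in the main analysis. GENCODE M21 supplied types, coordinates, GC content and length. With 1 library per group there was no test. The members and lists were chosen with earlier results of these data known. Named are the 20 highest and lowest protein-coding genes at 5 FPKM or more with a row of their own. Also named are members of 53 lists (of some, at most the 6 largest differences), defining markers and some fixed genes. A few list members below the filter are named as such. After values were seen, 4 lists were added. Some genes of the lists are counted but not reported here by name. Depth was recovered from FPKM steps of single-transcript genes, of which 90.2% to 91.9% were whole within 0.05 fragments. Promoters are from RefSeq. GC content trends were removed by the median in 20 bins. Scripts used Python 3.11.15, pandas 2.3.3, numpy 2.4.6 and scipy 1.17.1 and were tested on simulated data. Alternatives were other pseudocounts, filters, scalings and row classes.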

Additional observations from a re-analysis of the deposited data

Results flagged for a closer look

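The median difference of NMN-before from old had opposite signs in GICs and tumors for 24 lists. In 10 of them both medians were at least 0.2 in size and rested on 5 or more members; these are given here. The difference between the 2 medians was not tested, with 1 library per group. In GICs and tumors, the median log2 difference was 0.77 and -0.34 for astrocyte markers and 0.28 and -0.24 for proneural genes. For mesenchymal genes it was -0.24 in GICs and 0.42 in tumors. Mitosis genes had -0.27 in GICs and 0.33 in tumors, and DNA replication genes -0.30 in GICs and 0.38 in tumors. Glycolysis genes had -0.22 in GICs and 0.45 in tumors, and hypoxia genes -0.21 in GICs and 0.71 in tumors. Notch genes had 0.28 in GICs and -0.23 in tumors, and heat shock chaperones -0.38 in GICs and 0.61 in tumors. Neuron markers had -0.40 in GICs and 0.88 in tumors. Each table was filtered separately, so the 2 medians of a list can rest on different members. Neuron markers rested on 5 members in GICs and 14 in tumors. For heat shock chaperones these were 8 and 12, and for astrocyte markers 12 and 15.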

How the results depend on the processing

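Counts of rows 2-fold higher and lower, 418 and 295 in the main analysis, depended on how low values were treated: 751 and 664 with a pseudocount of 0.1, 568 and 452 with 0.5, 275 and 173 with a minimum of 5 FPKM, 662 and 595 after rescaling to TPM (which by construction makes the pseudocount smaller), and 283 and 166 for rows naming 1 protein-coding gene. The medians of the lists named next kept their direction in the settings run, with these shifts. Class I chains had -1.32 (pseudocount 0.1) and -1.19 (5 FPKM). Interferon-stimulated genes had -1.24 (0.1), -1.05 (0.5), -0.51 (no filter) and -1.07 (5 FPKM). GTPases had -2.94 (0.1), -2.58 (0.5), -1.78 (no filter), -2.57 (TPM) and -2.02 (shared rows added). Oligodendrocyte precursor genes had 1.03 without the filter and astrocyte genes 1.03 at a pseudocount of 0.1. Over the settings run, 13 lists changed the sign of their median in at least 1. Those with a main median of 0.2 or more in size were glutamate and GABA receptors -0.017 (no filter), myelin genes 0.39 (5 FPKM), microglia markers -0.21 (5 FPKM) and -0.24 (TPM), endothelial markers 0.83 (5 FPKM) and lymphocyte markers 0.34 (TPM). The filter settings change which members count; the cause was otherwise not tested. Of the gene values, 4268 kept their side of 2-fold and 68 did not. No gene past 2-fold changed sign; 37 smaller ones did in some setting, none above 0.23 in size, and 33 of these 39 changes came with removal of the GC trend. Median-of-ratios scaling raised the named genes' log2 differences by 0.0009 to 0.0044. No paired analysis was possible because each group is 1 library without a replicate number.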
